A study of Mus musculus with 8 samples.

Results

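The genes described here are 10 receptors, bridging proteins and signalling proteins by which phagocytes recognise and take up dying cells and debris: Timd4, Adgrb1, Stab1, Mfge8, Cd36, Msr1, Mrc1, Cd163, Elmo1 and Dock1. They were taken by name from a table of raw read counts for 55414 genes, and each of the 10 was found on 1 row. The table comes from a mouse model of supratentorial ependymoma, a brain tumor, carrying the ZFTA-RELA fusion, which the labels give as the genotype of all 8 libraries, those of naive brain included. The libraries form 4 groups of 2: naive brain or tumor from mice given vehicle, and naive brain or tumor from mice given MRX-2843, which inhibits the kinases MERTK and FLT3. MRX-2843 was dosed at 50 mg/kg by oral gavage on 5 consecutive days, vehicle on the same schedule, and tissue was taken 1 h after the last dose. Age, strain, the driver of the fusion and whether the naive brains were taken from tumor-bearing mice are not given in the sources used here. The labels call the pair of libraries of a group replicates and duplicates without tying them to separate animals, so p-values measure only the spread between these libraries, which may be technical.

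Dying cells display phosphatidylserine on their surface. Phagocytes bind it directly, through receptors such as Timd4, Adgrb1 and Stab1, or through secreted bridging proteins such as Mfge8 that integrins then hold. Adgrb1 is known to pass the signal to Elmo1 and Dock1, which together activate the small GTPase Rac and so drive the actin movements of engulfment, while the scavenger receptors Cd36, Msr1, Mrc1 and Cd163 take up lipids, glycoproteins and haemoglobin complexes. In brain, microglia are the main phagocytes. Mrc1 and Cd163 are known for macrophages at the borders of the brain, Mfge8 for astrocytes, and Adgrb1 for neurons and astrocytes.

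Library totals ran from 51150569 to 112938462 counts. Levels are in CPM, counts divided by the library total after TMM scaling and set to a common size. A fold change is a log2 value ± its standard error (SE), and a gene is called where the Benjamini-Hochberg adjusted p of edgeR's quasi-likelihood test, over 24356 genes, is under 0.05. The libraries labelled MRX-2843 tumor stood close to naive brain: over 12636 genes their Pearson's r was 0.962 to 0.964 with vehicle naive brain and 0.487 to 0.492 with vehicle tumor (genes are not independent replicates). Zfta, a partner gene of the fusion, was at 287 and 289.9 CPM in the vehicle tumor libraries, at 54.3 and 57.0 CPM in those labelled MRX-2843 tumor, and at 32.7 to 49.6 CPM in naive brain. Mitochondrially encoded genes took 3.26 and 3.37% of counts in vehicle tumor and 14.7 to 18.5% elsewhere. The treatments differed in sex-linked RNA: in the 4 libraries of treated mice Xist was at 526 to 795 CPM, in the 4 of vehicle mice at 0.408 to 2.88 CPM, and Ddx3y had 0 counts in the first and 32.3 to 76.2 CPM in the second. The column names of the count table also carry a number that is not explained: the 4 libraries of treated mice share it across both tissues. Among the libraries of vehicle mice, both of tumor and replicate 1 of naive brain share another number. Only replicate 2 of vehicle naive brain differs from these. Treatment cannot be told apart from these differences.

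Stretches before the start sites are shown for some of the members that stood higher in vehicle tumor than in naive brain (Stab1, Timd4, Cd163). They are also shown for Elmo1, which stood lower, and Mfge8, which was not called. Start sites are from RefSeq on GRCm38.p6, where 8 of the 10 members were matched, Elmo1 with an outer and an inner start. Each line gives the 100 bases directly before the start, 5′ to 3′ on the gene's strand, none of them in an annotated exon, with CpG dinucleotides in capitals.
Stab1: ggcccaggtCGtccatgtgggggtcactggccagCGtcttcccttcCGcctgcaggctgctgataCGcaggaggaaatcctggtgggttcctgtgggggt
Timd4: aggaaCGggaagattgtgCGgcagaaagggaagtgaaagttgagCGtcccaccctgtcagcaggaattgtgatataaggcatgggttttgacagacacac
Cd163: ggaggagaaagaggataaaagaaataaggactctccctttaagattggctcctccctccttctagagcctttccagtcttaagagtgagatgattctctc
Mfge8: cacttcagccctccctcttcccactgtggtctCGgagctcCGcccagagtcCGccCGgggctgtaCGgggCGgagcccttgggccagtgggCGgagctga
Elmo1: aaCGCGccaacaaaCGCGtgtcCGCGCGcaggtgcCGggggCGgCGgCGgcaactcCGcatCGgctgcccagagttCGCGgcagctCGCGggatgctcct
They lie at chr14:31168642-31168741 (minus strand, Stab1), chr11:46810699-46810798 (plus, Timd4), chr6:124304551-124304650 (plus, Cd163), chr7:79149061-79149160 (minus, Mfge8) and chr13:20090407-20090506 (plus, outer start of Elmo1). The last 2 are the CpG-rich ones of the lines above, with 7 CpG for Mfge8 and 17 for Elmo1 against 4 for Stab1, 3 for Timd4 and 0 for Cd163. Over the full 250 bases before the start, Stab1, Timd4, Cd36, Mrc1 and Cd163 held 5, 4, 3, 3 and 0 CpG, under the median of 6 over the same stretch of all 32851 promoters of the reference table. Dock1, which also stood higher in vehicle tumor, held 29, the most of the matched members. Elmo1 held 21 at its outer and 5 at its inner start, and Mfge8 12. The CpG-poor lines above are therefore not typical of all members that stood higher, and a link between CpG content and direction was not tested. Motifs were searched as letters on both strands, from 250 bases before to 50 after the start. A PU.1 motif, GAGGAAGT, held by 3.20% of all promoters, was found for Elmo1 at positions 39 to 46 after the outer start. A MAF motif, TGCTGAC, held by 4.67%, was found for Timd4 on the opposite strand at positions -45 to -39 (gtcagca in the line above reads the same site on the gene's strand). A loose NF-kB pattern, held by 5.56%, and the STAT pattern TTCNNNGAA, held by 8.30%, were found among the members at the inner start of Elmo1. A stricter NF-kB pattern, held by 1.63% of all promoters, was not in these windows.

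In vehicle-treated mice, most of the receptors stood higher in tumor than in naive brain, while Adgrb1 and Elmo1 stood lower. The test called 7 members higher (Stab1, Timd4, Cd36, Dock1, Msr1, Mrc1 and Cd163), 2 lower and 1, Mfge8, neither way. Of all tested genes 60.1% were called in this comparison, 29.3% higher and 30.8% lower. The median log2 fold change of the 10 members was 1.52, against -0.03 over all tested genes. Between the libraries labelled MRX-2843 tumor and vehicle tumor, all 10 were called, 3 higher and 7 lower. There the background was 60.4%, with 30.6% higher and 29.8% lower, and the members' median was -1.42 against 0.03. Both comparisons use the vehicle tumor libraries, so they share whatever sets those libraries apart, and they are given side by side below. All 10 members passed the filter on low counts.

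**Figure D1:**
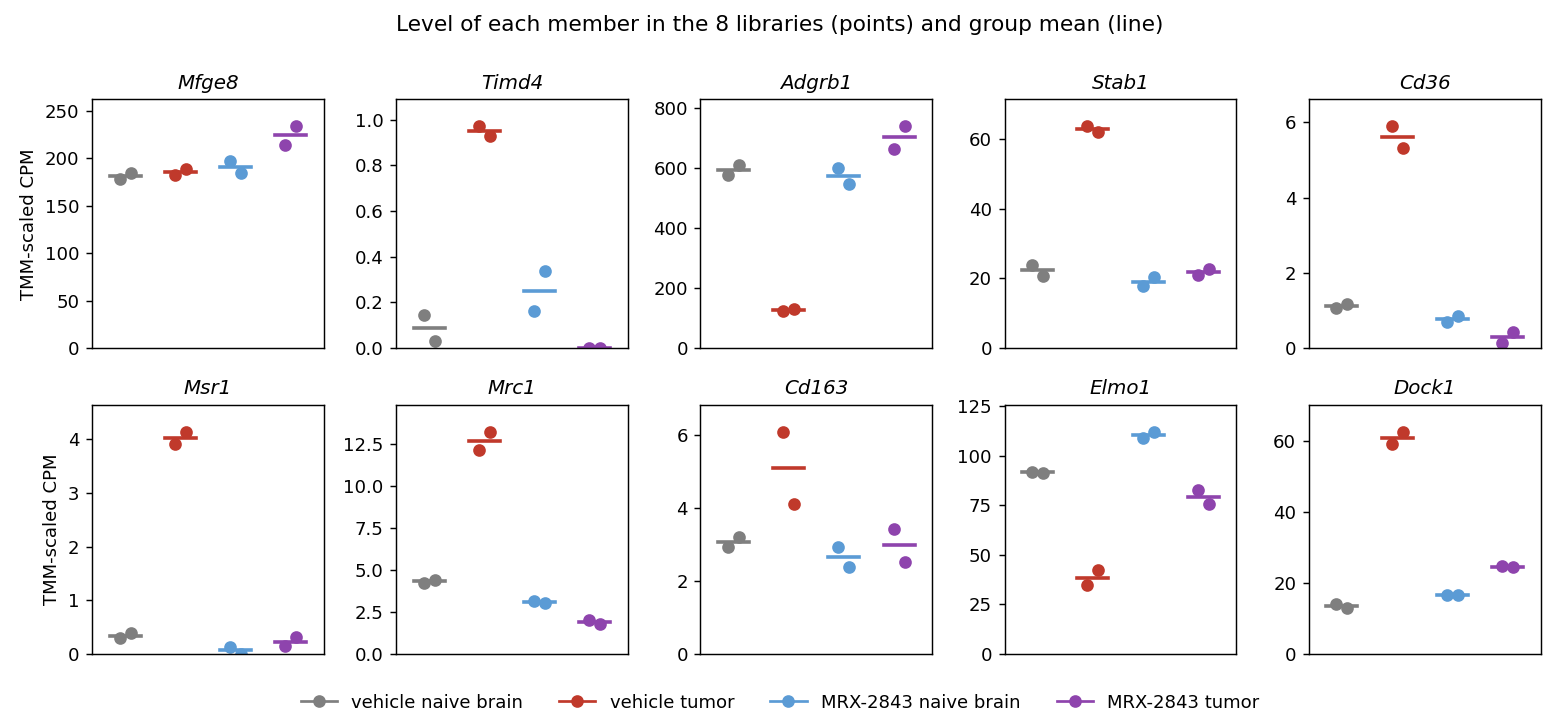
TMM-scaled CPM (y axis, linear, from 0, a scale for each gene) of the 10 members in each of the 8 libraries; points are libraries, lines are group means, colours are the 4 groups. Vehicle tumor is the highest group for Stab1, Timd4, Cd36, Msr1, Mrc1, Cd163 and Dock1 and the lowest for Adgrb1 and Elmo1, while Mfge8 lies between 178 and 234 CPM in all 8 libraries.

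Of the receptors that bind phosphatidylserine directly, Timd4 (chr11:46810800-46844332, plus strand, GENCODE M21 on GRCm38), known for tissue-resident macrophages, was scarce. It had 10 and 2 counts in vehicle naive brain, 84 and 82 in vehicle tumor, 8 and 36 with MRX-2843 in naive brain, and 0 in both of the libraries labelled MRX-2843 tumor. As levels these are 0.144 and 0.0298, 0.971 and 0.930, 0.164 and 0.337, and 0 and 0 CPM. Vehicle tumor held the most and overlapped no other group. Timd4 rose by 3.43 ± 1.17 in vehicle tumor against naive brain (adjusted p = 0.021), a call that ended without vehicle naive brain replicate 2 (adjusted p = 0.12), vehicle tumor replicate 1 (0.087) or vehicle tumor replicate 2 (0.076). With the 2 libraries labelled MRX-2843 tumor set at 3 counts in all, or 0.0258 CPM, it was 36.8-fold lower there than in vehicle tumor (adjusted p = 0.00074 in edgeR's test). That fold takes each count as 1 molecule, and it would be smaller if both reads of a pair were counted. In bulk tissue, fewer cells of a type and less RNA per cell cannot be told apart, here and for each receptor that follows.

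Adgrb1 (chr15:74516195-74589465, plus strand), an adhesion receptor also called BAI1, showed the reverse order. Its libraries were at 578 and 609 CPM in vehicle naive brain, 124 and 130.4 CPM in vehicle tumor, 600.0 and 547 CPM in MRX-2843 naive brain, and 664 and 739.6 CPM in those labelled MRX-2843 tumor. Both vehicle tumor libraries lay far under the other 6, and the libraries of the naive groups overlapped. Adgrb1 was lower in vehicle tumor than in vehicle naive brain by a log2 fold change of -2.22 ± 0.06 (adjusted p = 1.8e-13) and higher in the libraries labelled MRX-2843 tumor than in vehicle tumor by 2.46 ± 0.06 (6.6e-14). Beside it, the summed level of 8 neuron markers, among them Snap25 and Syt1, was 6093 to 6219 CPM in vehicle naive brain, 411 CPM in both vehicle tumor libraries, 3125 to 3174 CPM in MRX-2843 naive brain and 3279 to 3299 CPM in the libraries labelled MRX-2843 tumor, with none of the 8 at 0. All 8 were called lower in vehicle tumor than in vehicle naive brain, beside 30.8% of all tested genes, though Rbfox3 was only at 207 against 232 CPM. In the libraries labelled MRX-2843 tumor 7 were called higher than in vehicle tumor and 1, Rbfox3, lower, at 182 CPM. Of all tested genes 30.6% were called higher there and 29.8% lower. The part of these cells in the level of Adgrb1 was not tested.

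Stab1 (chr14:31139013-31168641, minus strand), a large scavenger receptor of macrophages and sinusoidal endothelium that also binds phosphatidylserine, was at 23.9 and 20.6 CPM in vehicle naive brain and 63.7 and 61.9 CPM in vehicle tumor. With MRX-2843 it was at 17.8 and 20.4 CPM in naive brain and at 20.9 and 22.7 CPM in the libraries labelled MRX-2843 tumor. Vehicle tumor was the single high group, and the libraries of vehicle naive brain and those labelled MRX-2843 tumor overlapped. The libraries of MRX-2843 naive brain lay just under both without overlap, and neither of these differences was called. The log2 fold change was 1.49 ± 0.10 for vehicle tumor against vehicle naive brain (adjusted p = 7.3e-09) and -1.53 ± 0.11 for the libraries labelled MRX-2843 tumor against vehicle tumor (6.4e-09). Its exons share 112 bp with Nt5dc2 on the opposite strand, 1.09% of their length, and the strand setting of the counting is not given in the sources used here.

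Mfge8 (chr7:79133768-79149060, minus strand), the secreted bridging protein, stood at similar levels in tumor and naive brain of vehicle-treated mice. It was at 178 and 185 CPM in vehicle naive brain, 182 and 189 CPM in vehicle tumor, 197 and 185 CPM in MRX-2843 naive brain, and 214 and 234 CPM in the libraries labelled MRX-2843 tumor. The last pair lay above the other 6 libraries, among which those of vehicle tumor overlapped both naive groups. Its log2 fold change was 0.03 ± 0.06 for vehicle tumor against vehicle naive brain (adjusted p = 0.66) and 0.27 ± 0.06 for the libraries labelled MRX-2843 tumor against vehicle tumor (0.001). Both outcomes turned on the scaling: with library totals in place of TMM, which moves the median of all genes by 0.25 and -0.22, the values were 0.29 (adjusted p = 0.00089) and 0.05 (0.51). The 8 astrocyte markers summed to 2326 to 2329 CPM in vehicle naive brain, 3612 to 3685 in vehicle tumor, 1965 to 2021 in MRX-2843 naive brain and 2761 to 2875 in the libraries labelled MRX-2843 tumor. In vehicle tumor against vehicle naive brain 2 of the 8 were called higher and 5 lower, beside 29.3% and 30.8% of all tested genes. The glial filament gene Gfap was at 2706 against 143 CPM. The glutamate transporter genes Slc1a2 and Slc1a3 were at 252 against 1468 and 298 against 351 CPM. The part of astrocytes in the level of Mfge8 was not tested.

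Among the scavenger receptors, Cd36 (chr5:17781690-17888801, minus strand), which takes up oxidised lipids and fatty acids, was at 1.06 and 1.16 CPM in vehicle naive brain and 5.90 and 5.31 CPM in vehicle tumor. It was at 0.697 and 0.844 CPM in MRX-2843 naive brain and at 0.141 and 0.438 CPM, 8 and 26 counts, in the libraries labelled MRX-2843 tumor. No group overlapped another. The log2 fold changes were 2.33 ± 0.45 (adjusted p = 0.00034) for vehicle tumor against vehicle naive brain and -4.26 ± 0.51 (3.1e-06) for the libraries labelled MRX-2843 tumor against vehicle tumor.

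Msr1 (chr8:39581685-39642673, minus strand), the class A macrophage scavenger receptor, had 20 and 26 counts in vehicle naive brain, 338 and 365 in vehicle tumor, 6 and 0 with MRX-2843 in naive brain, and 8 and 18 in the libraries labelled MRX-2843 tumor. In CPM these were 0.287 and 0.387, 3.91 and 4.14, 0.123 and 0, and 0.141 and 0.304. Vehicle tumor was again the single high group. Msr1 rose by 3.57 ± 0.78 in vehicle tumor against vehicle naive brain (adjusted p = 0.001), and its log2 fold change was -4.17 ± 0.81 in the libraries labelled MRX-2843 tumor against vehicle tumor (0.00041). With each count taken as 1 molecule, the 0 in MRX-2843 naive brain replicate 2 allows up to 3 counts, or 0.0266 CPM of the unscaled total.

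Mrc1 (chr2:14229392-14332057, plus strand), the mannose receptor, was at 4.25 and 4.41 CPM in vehicle naive brain, 12.1 and 13.2 CPM in vehicle tumor, 3.16 and 2.999 CPM in MRX-2843 naive brain, and 2.00 and 1.75 CPM in the libraries labelled MRX-2843 tumor. The 4 groups did not overlap, and the libraries labelled MRX-2843 tumor were the lowest. The log2 fold changes were 1.55 ± 0.21 (adjusted p = 1.2e-05) for vehicle tumor against vehicle naive brain and -2.75 ± 0.22 (4.3e-08) for the libraries labelled MRX-2843 tumor against vehicle tumor.

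Cd163 (chr6:124304656-124330527, plus strand), the receptor for haemoglobin bound to haptoglobin, moved least among the scavenger receptors and was the most uneven within vehicle tumor. Its levels were 2.91 and 3.20 CPM in vehicle naive brain, 6.08 and 4.10 CPM in vehicle tumor, 2.91 and 2.39 CPM in MRX-2843 naive brain, and 3.43 and 2.51 CPM in the libraries labelled MRX-2843 tumor. Vehicle tumor lay above the rest, among which the libraries labelled MRX-2843 tumor overlapped both naive groups. The log2 fold changes were 0.73 ± 0.30 (adjusted p = 0.047) and -0.78 ± 0.30 (0.037). Without vehicle tumor replicate 1 they were 0.43 (adjusted p = 0.38) and -0.47 (0.32), and the first call also ended without either vehicle naive brain library (0.17 and 0.1), the second without replicate 2 of the libraries labelled MRX-2843 tumor (0.2).

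The signalling pair split. Dock1 (chr7:134670654-135173639, plus strand), the exchange factor that activates Rac, was at 13.9 and 12.9 CPM in vehicle naive brain, 59.1 and 62.5 CPM in vehicle tumor, 16.7 and 16.6 CPM in MRX-2843 naive brain, and 24.7 and 24.3 CPM in the libraries labelled MRX-2843 tumor. Elmo1 (chr13:20090596-20608353, plus strand), the scaffold that Dock1 binds, was at 91.9 and 91.2, 34.5 and 42.3, 109 and 112, and 82.5 and 75.5 CPM in the same order of groups. For neither gene did any groups overlap: vehicle tumor was the highest group for Dock1 and the lowest for Elmo1. Dock1 rose by 2.18 ± 0.10 in vehicle tumor against vehicle naive brain (adjusted p = 3e-11), where Elmo1 had -1.25 ± 0.09 (6.1e-09). Against vehicle tumor, the libraries labelled MRX-2843 tumor had -1.31 ± 0.09 for Dock1 (9.3e-09) and 1.04 ± 0.09 for Elmo1 (5.9e-08). Exons of Elmo1 share 403 bp, 3.20% of their length, with the antisense gene Gm32036.

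**Figure D2:**
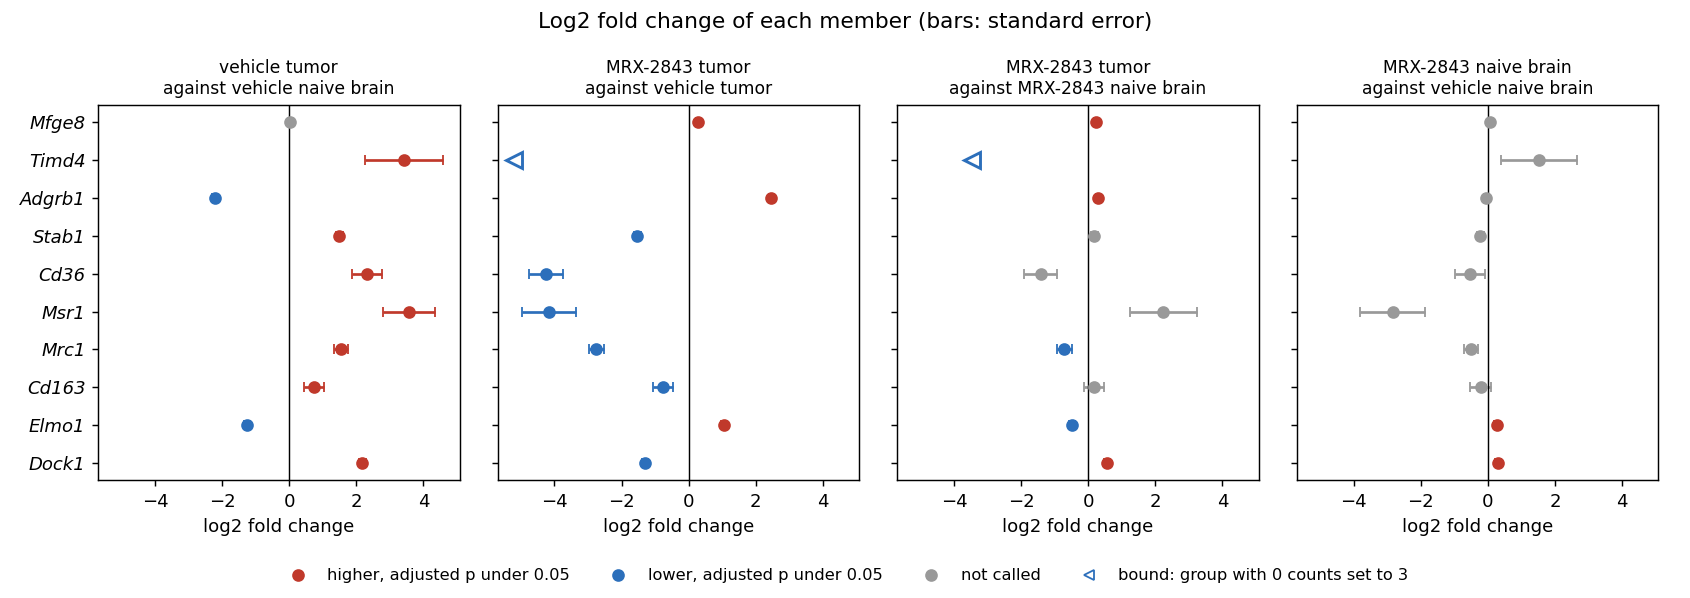
Log2 fold change (x axis) of the 10 members (rows) in 4 comparisons, from edgeR's quasi-likelihood fit; bars are standard errors, red and blue are calls at adjusted p under 0.05, and open triangles are bounds for Timd4 with the group at 0 counts set to 3. Red and blue change sides between the first and the second panel, which share the vehicle tumor libraries, for the 9 members called in the first, and the other panels hold more grey points.

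Within MRX-2843-treated mice, 6 of the 10 members were called between tissues. The libraries labelled MRX-2843 tumor had 3 members called higher than MRX-2843 naive brain, 3 called lower and 4 called neither way, where 24.4% of all tested genes were called, 12.4% higher and 11.9% lower. Dock1 rose by 0.56 ± 0.10 (adjusted p = 0.0005), Adgrb1 by 0.29 ± 0.06 (0.0024) and Mfge8 by 0.23 ± 0.06 (0.01). Elmo1 was lower by a log2 fold change of -0.49 ± 0.09 (0.00064) and Mrc1 by -0.71 ± 0.22 (0.03). Timd4 was lower as well (0.013), by 10.96-fold with the group at 0 set at 3 counts, each taken as 1 molecule. None of these 6 had overlapping libraries, but neither did Stab1, Cd36 and Msr1, which were not called. Lack of overlap therefore does not set the called members apart, and its share over all genes was not counted. Cd36 had -1.41 ± 0.49 (adjusted p = 0.051), and was called without replicate 2 of the libraries labelled MRX-2843 tumor (-2.44, adjusted p = 0.0071), without vehicle naive brain replicate 1 (0.049) and without vehicle tumor replicate 2 (0.049). Stab1, Cd163 and Msr1 had 0.19 ± 0.11 (0.24), 0.17 ± 0.30 (0.78) and 2.24 ± 1.00 (0.13). Msr1 was called without MRX-2843 naive brain replicate 1 (adjusted p = 0.0017), which leaves that group with 0 counts. The calls of Mfge8 ended without MRX-2843 naive brain replicate 2 (adjusted p = 0.083) or replicate 2 of the libraries labelled MRX-2843 tumor (0.088), that of Timd4 without their replicate 1 (0.051), and that of Mrc1 without any 1 of the 4 libraries compared (0.062 to 0.16), without vehicle tumor replicate 2 (0.053) and with only the groups compared (0.11). Oligodendrocyte markers moved beside these differences, with all 8 called higher and a summed level of 13873 to 14319 CPM against 7444 to 7521 CPM, none of the 8 being at 0, and their part in them was not tested.

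In naive brain, 2 of the 10 members were called between MRX-2843 and vehicle. Elmo1 rose by 0.27 ± 0.08 and Dock1 by 0.31 ± 0.10 (adjusted p = 0.033 for each), and the other 8 were called neither way, where 21.5% of all tested genes were called, 9.78% higher and 11.7% lower. This count is near that background and is no result about the members. The libraries of Elmo1 and of Dock1 did not overlap between these groups, but neither did those of the uncalled members other than Adgrb1. No member was called lower by edgeR, 2 had an unadjusted p under 0.05 in that direction, and DESeq2 called 1. Msr1, with -2.83 ± 0.96 (adjusted p = 0.0504), and Mrc1, with -0.49 ± 0.21 (0.13), were the members with the largest negative values beside Cd36 (-0.52 ± 0.45, 0.49). Both calls ended in 4 of the 8 fits that leave out 1 library, those without either vehicle naive brain library or either MRX-2843 naive brain library, with adjusted p of 0.057 to 0.13 for Elmo1 and 0.069 to 0.23 for Dock1. That of Dock1 also ended without vehicle tumor replicate 1 (0.056) or 2 (0.058). Msr1 was called in the fits without MRX-2843 naive brain replicate 1 (adjusted p = 0.00064) and without any 1 of the 4 tumor libraries (0.026 to 0.037). The summed neuron markers differed between these groups too, as given beside Adgrb1, with 5 of the 8 called lower and 2 higher. With MRX-2843 against vehicle, Slc17a7 was at 150 against 1685 CPM, while Gad1 was at 341 against 226 and Gad2 at 244 against 80.5 CPM. The part of neurons was not tested.

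The treatment difference in tumor minus that in naive brain, the interaction of treatment and tissue, was called for 7 members, 2 higher and 5 lower, where 51.6% of all tested genes were called, 26.3% higher and 25.3% lower. It was 2.51 ± 0.09 for Adgrb1 (adjusted p = 2.9e-12) and 0.77 ± 0.12 for Elmo1 (7.3e-05). It was -1.62 ± 0.13 for Dock1 (7.3e-08), -1.31 ± 0.15 for Stab1 (2.6e-06), -2.26 ± 0.30 for Mrc1 (1.5e-05) and -3.74 ± 0.66 for Cd36 (0.00021). Timd4 was called lower as well (adjusted p = 0.0011), with a fitted value that depends on the prior count because 1 group is at 0. Mfge8 had 0.20 ± 0.08 (0.063), Cd163 -0.57 ± 0.43 (0.29) and Msr1 -1.33 ± 1.34 (0.44). The 7 calls held in every alternative tried, whereas Msr1 was called without MRX-2843 naive brain replicate 2 (-2.73, adjusted p = 0.031), and Mfge8 without MRX-2843 naive brain replicate 1 (0.24, 0.035) or without replicate 1 of the libraries labelled MRX-2843 tumor (0.26, 0.025).

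Markers of microglia and of monocytes stood higher in vehicle tumor beside the receptors, while those of border-associated macrophages were mixed. The 8 microglia markers, among them Tmem119 and Olfml3, summed to 144 to 149.6 CPM in vehicle naive brain, 1015 to 1029 CPM in vehicle tumor, 142 to 144 CPM in MRX-2843 naive brain and 181 to 191 CPM in the libraries labelled MRX-2843 tumor, and all 8 were called higher in vehicle tumor than in vehicle naive brain. The 8 markers of border-associated macrophages, among them F13a1 and Ms4a7, summed to 9.88 to 10.005, 30.6 to 31.4, 7.28 and 4.86 to 5.22 CPM in the same order of groups, with 3 of 8 called higher in vehicle tumor, a share near the 29.3% of all tested genes. The other 5 were not called, among them Lyve1 at 1.04 against 1.13, Pf4 at 1.44 against 1.34 and Cd209f at 0.344 against 0.865 CPM in vehicle tumor against vehicle naive brain. The 8 markers of monocytes and monocyte-derived macrophages, among them Lyz2 and Itga4, summed to 21.7 to 23.9, 363 to 378, 18.8 to 20.3 and 31.3 to 33.3 CPM, with 7 of 8 called higher. Plac8 was at 0 in vehicle naive brain, so that it could not have been lower in vehicle tumor. Ms4a4c was at 0 in the libraries labelled MRX-2843 tumor and near the floor in vehicle naive brain, at 0.0861 and 0.119 CPM. Outside vehicle tumor Ms4a4c reached at most 0.164 CPM, which left it little room to be lower. Endothelial markers, 9 of 9 higher, and markers of mural cells and fibroblasts, 5 of 7 higher and 1 lower, stood higher too, at 650.2 to 653 against 166 to 172 CPM and at 6346 to 6408 against 227 to 231 CPM. Most of the last sum was Col1a1, a collagen gene of fibroblasts, at 5523 against 11.4 CPM, while the mural genes Rgs5, Kcnj8 and Vtn were at 116 against 93.2, 3.40 against 3.36 and 54.0 against 86.0 CPM. All 8 oligodendrocyte markers were called lower, beside 30.8% of all tested genes, at 432 to 449.5 against 7324 to 7390 CPM. The part of any of these cells in the members' levels was not tested.

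Set against the summed counts of the 24 myeloid markers, most of the scavenger receptors were scarcer in vehicle tumor than in vehicle naive brain. Per 1000 such counts, Stab1 stood at 132 and 116 in vehicle naive brain, 45.2 and 43.0 in vehicle tumor, 105 and 119.6 with MRX-2843 in naive brain, and 95.3 and 99.7 in the libraries labelled MRX-2843 tumor. Cd163 was at 16.1 and 18.0, 4.32 and 2.85, 17.2 and 14.0, and 15.6 and 11.04 in that order, and vehicle tumor was the lowest group for both genes without overlap. Mrc1 was at 23.4 and 24.8, 8.62 and 9.21, 18.7 and 17.6, and 9.14 and 7.70, so that both tumor groups were low and overlapped. Cd36 was at 5.86 and 6.53, 4.19 and 3.69, 4.12 and 4.96, and 0.642 and 1.93. Msr1 was the exception among the scavenger receptors, with 2.77 and 2.88 in vehicle tumor above the 1.58 and 2.18 of vehicle naive brain, the 0.728 and 0 of MRX-2843 naive brain and the 0.642 and 1.33 of the libraries labelled MRX-2843 tumor. Timd4, at 0.689 and 0.647 in vehicle tumor, lay between the 0.791 and 0.167 of vehicle naive brain. It was highest in MRX-2843 naive brain, at 0.970 and 1.98, and at 0 in both of the libraries labelled MRX-2843 tumor. These ratios are a description without a test, and their denominator is dominated by microglia markers. Their direction depends on the markers: in vehicle tumor against vehicle naive brain P2ry12 rose 2.14-fold, Fcrls 3.69-fold and Olfml3 14.2-fold. Stab1 rose 2.82-fold, Mrc1 2.93-fold, Cd36 5.03-fold and Cd163 1.66-fold, so all but Cd163 rose more than P2ry12, and none of them as much as Olfml3.

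**Figure D3:**
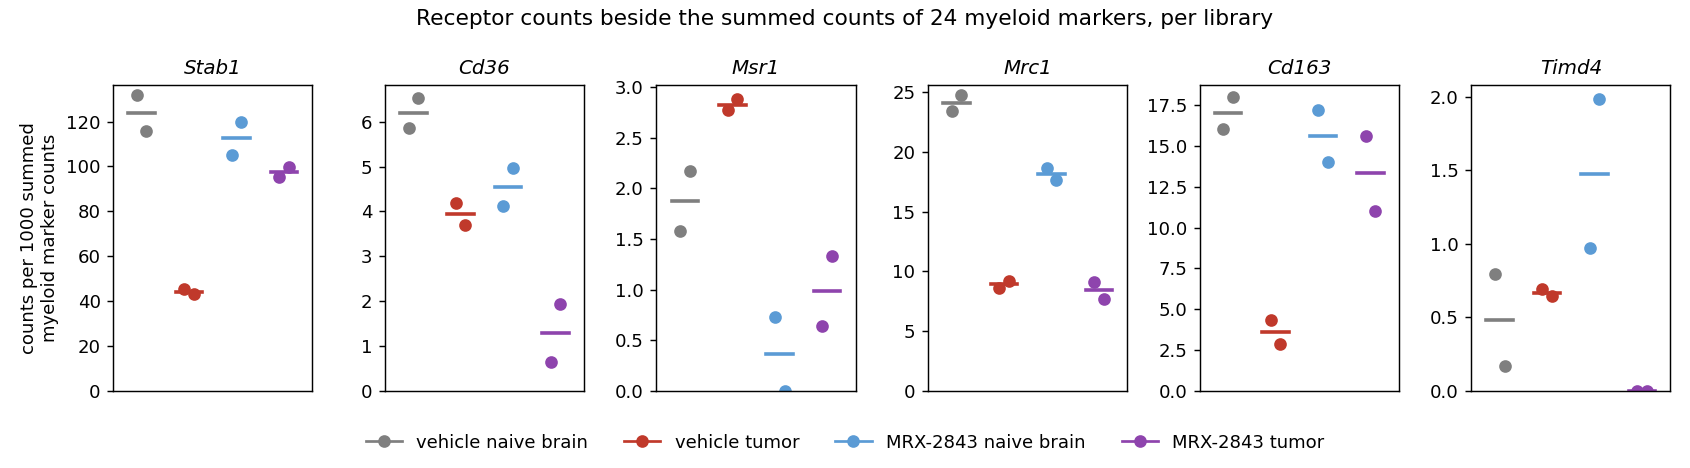
Counts of 6 receptors per 1000 summed counts of 24 myeloid markers (y axis, linear, from 0, a scale for each gene) in each library; points are libraries and lines are group means. Vehicle tumor is the lowest group for Stab1 (45.2 and 43.0) and Cd163 (4.32 and 2.85) and the highest for Msr1 (2.77 and 2.88).

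Per kilobase of exon, the members spanned a wide range of levels. In vehicle naive brain Adgrb1 stood first, at 82.2 ± 3.09 CPM per kb (SD, n = 2), followed by Mfge8 at 38.6 ± 1.00 and Elmo1 at 7.28 ± 0.04 CPM per kb. Stab1 (2.17 ± 0.23) and Dock1 (1.44 ± 0.08) came next, and Mrc1, Cd163, Cd36, Msr1 and Timd4 lay from 0.680 down to 0.0399 CPM per kb. In vehicle tumor Mfge8, at 39.5 ± 0.93 CPM per kb, stood above Adgrb1, at 17.6 ± 0.60, and Dock1 (6.52 ± 0.26) and Stab1 (6.10 ± 0.12) stood above Elmo1 (3.05 ± 0.44). In the libraries labelled MRX-2843 tumor Adgrb1 (97.2 ± 7.36) and Mfge8 (47.7 ± 2.92) again led, and Timd4 was last at 0.

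Genes with a pattern most like a member's were sought over the 8 libraries, as the smallest root mean square (RMS) difference between log2 CPM profiles centred on their own means, among 11783 genes. Nearest to Stab1 were Rgcc (0.073), Ptpn21 (0.074) and Trps1 (0.079), and nearest to Dock1 were Parp4 (0.056), Hpgds (0.10) and Egfr (0.11). Adgrb1 lay next to Crtc1 (0.035), Ankrd13b (0.067) and Mapk8ip1 (0.074), and Elmo1 next to Abcg4 (0.073), Ppp2r5b (0.093) and Sparcl1 (0.10). For Mfge8 they were Ubr2 (0.025), Tmem131l (0.038) and Sirt2 (0.041). Likeness was looser for Mrc1, with Cd248 (0.18), Shisa8 (0.18) and Igsf3 (0.19), and for Cd163, with Smg8 (0.15), Tanc1 (0.15) and Zbtb6 (0.15). Timd4, Cd36 and Msr1 were too low for this comparison, with a mean log2 CPM under 1.

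The wider engulfment pathway was followed in 96 other genes on 8 lists, 94 of them tested. In vehicle tumor against vehicle naive brain 65 were called higher and 13 lower, where 29.3% of all tested genes were higher and 30.8% lower, with a median log2 fold change of 1.19 against -0.03 over all tested genes. For the libraries labelled MRX-2843 tumor against vehicle tumor, which share the vehicle tumor libraries with the first comparison, 16 were higher and 64 lower, beside 30.6% and 29.8% of all tested genes. Against MRX-2843 naive brain 33 were higher and 11 lower, beside 12.4% and 11.9%, so that the number lower is near the background. For MRX-2843 against vehicle in naive brain 15 were higher and 21 lower, beside 9.78% and 11.7%. All 8 bridging proteins were called higher in vehicle tumor, among them the complement subunits C1qa, at 798 ± 19.0 against 55.9 ± 1.89 CPM, and C1qb, at 463 ± 6.55 against 31.2 ± 0.02 CPM. Mfge8, which is no member of that list, was the bridging protein that was not called. Of 14 other scavenger receptors 13 passed the filter on low counts, and these were called higher as well. For Cd5l and Olr1 all 4 naive brain libraries were at 0, so that they passed the filter through tumor libraries alone and could not have been lower. The other 11 had counts in naive brain, among them the lysosomal Cd68 (78.3 ± 1.02 against 8.57 ± 0.08 CPM) and the collectin Colec12 (84.9 ± 4.70 against 9.70 ± 1.25 CPM).

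Of the other uptake receptors, 13 of 17 tested were called higher and 2 lower in vehicle tumor. Lrp1, a receptor for many ligands, was at 2563 ± 74.4 against 329 ± 8.05 CPM, and Megf11, a homologue of a nematode engulfment receptor, at 5.62 ± 0.75 against 34.9 ± 1.29 CPM. The TAM receptors lie on this list: in vehicle tumor against vehicle naive brain Axl had 4.80 ± 0.06, Mertk 0.49 ± 0.09 and Tyro3 -0.71 ± 0.05, each called. Find-me signals and their sensors had 5 of 8 higher and 1 lower: the fractalkine receptor Cx3cr1 was at 233 ± 1.98 against 43.6 ± 0.55 CPM, its ligand Cx3cl1 at 75.1 ± 2.15 against 573 ± 4.06 CPM. Of the 8 signals to eat or not to eat, 3 were called higher and 4 lower, beside 29.3% and 30.8% of all tested genes, with the eat-me protein Calr at 998 ± 10.04 against 269 ± 11.9 CPM and Sirpa, the receptor for the signal not to eat, at 259 ± 2.03 against 389 ± 20.4 CPM.

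The downstream lists are given beside 29.3% of all tested genes called higher and 30.8% called lower in vehicle tumor. There, 10 of 17 genes of engulfment signalling were called higher and 3 lower. Among them Rac2, a Rac GTPase of blood cells, was at 53.5 ± 2.30 against 3.14 ± 0.52 CPM, and Dock3, a neuronal relative of Dock1, at 11.1 ± 1.01 against 104 ± 2.06 CPM. Phagosome maturation had 7 of 15 higher and 1 lower, among them the protease Ctsd (1597 ± 33.4 against 181 ± 2.13 CPM) and the nuclease Dnase2a (75.1 ± 2.28 against 4.97 ± 0.01 CPM) higher and Mon1a lower (18.5 ± 1.13 against 24.7 ± 1.03 CPM). Lipid sensing after uptake had 6 of 8 higher and 2 lower, the number lower being near the background. The cholesterol exporter Abca1 was at 114 ± 6.90 against 22.7 ± 1.32 CPM and its relative Abcg1 at 47.2 ± 2.90 against 62.9 ± 3.48 CPM.

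**Figure D4:**
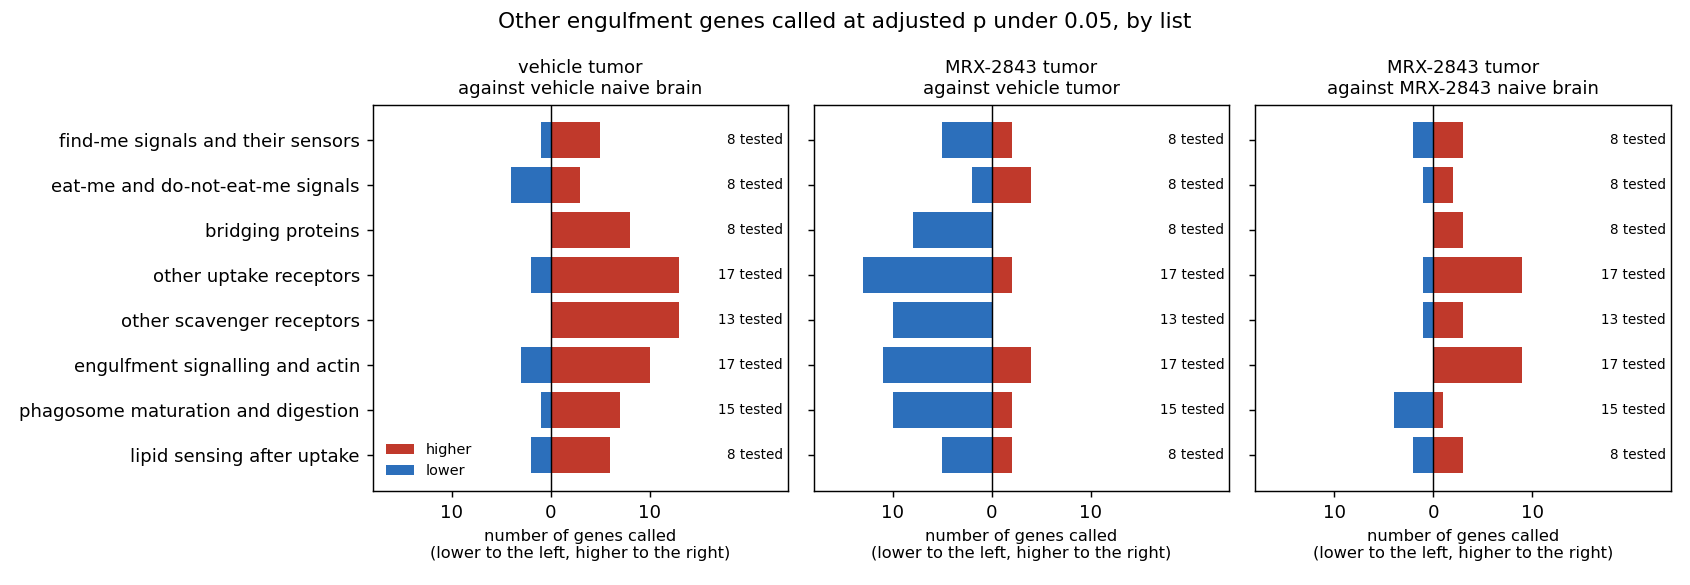
Number of genes called at adjusted p under 0.05 (x axis, higher to the right in red, lower to the left in blue) on 8 lists of other engulfment genes (rows) in 3 comparisons, with the number tested at the right. Bridging proteins (8 of 8) and other scavenger receptors (13 of 13 tested, 2 of them at 0 counts in naive brain) were called only in the higher direction in vehicle tumor against vehicle naive brain.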

How the data were processed

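Read counts per gene in 8 RNA-seq libraries were used as the authors deposited them: raw, whole-number counts for 55414 genes. Per the submitters' processing notes, the tools were STAR 2.7.7a, Subread, featureCounts and SAMtools, and the genomes mm10 and hg38; which tool used which is not given. The annotation and strand setting are not given in the sources used here. Of the gene identifiers, 52081 (94.0%) matched GENCODE M21, the source of coordinates and exon lengths, without version and 35 with it. Among genes with 1 to 49 counts in a library, 75.8 to 80.3% had an even count, as counting both reads of a pair would give. A floor of 3 counts is then fewer molecules than it seems, and counting error is understated. There, 3 counts are 0.0266 to 0.0587 CPM of a library. Intervals and floors cover counting error only.

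In R 4.3.3, edgeR 4.0.16 fitted the counts by quasi-likelihood, with TMM, 4 group means, filterByExpr by group (its count minimum being 10) and 4 residual degrees of freedom; the common coefficient of biological variation was 21.0%. The test covered 24356 genes, with Benjamini-Hochberg adjustment over all of them, calls at adjusted p under 0.05 and no minimum fold. SE is the size of the log2 fold change divided by the root of F. The script was checked on simulated counts. The 5 comparisons were tissue within treatment, treatment within tissue, and their interaction. The members, lists and tests were chosen with earlier results of these data known. Named genes are the 10 members, from each pathway list the 2 with the smallest adjusted p in each direction in vehicle tumor against vehicle naive brain, always Mertk, Axl and Tyro3, from each marker list the most abundant markers and those at 0, and the 3 genes most like each member with a mean log2 CPM of at least 1 (among genes with at least 2). Alternatives were DESeq2 1.42.0 as test, its size factors in edgeR, library totals, no filter, a filter asking for a CPM of 1 or more in 2 libraries, a replicate block, only the groups compared, and leaving out each library, which treats the lone library of that group as varying like the rest. Added after seeing the data were fits without both tumor libraries of a treatment, without mitochondrially encoded genes and with halved counts. A planned marker is not reported here and was left out of its list. Python 3.11.15 made the tables and plots.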

Additional observations from a re-analysis of the deposited data

Results flagged for a closer look

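For 7 members the difference between the groups labelled MRX-2843 and vehicle was not the same in tumor as in naive brain, by the test of the interaction. Of all tested genes 51.6% were called in that test, 26.3% higher and 25.3% lower, so that the 2 members called higher are near the background. The treatment difference in tumor minus that in naive brain, in log2 units, was 2.51 for Adgrb1 and 0.77 for Elmo1. It was -1.31 for Stab1, -3.74 for Cd36, -1.62 for Dock1 and -2.26 for Mrc1. For Timd4 the fitted value was -10.65, which depends on the prior count because the libraries labelled MRX-2843 tumor hold 0 counts, so its size is no estimate. These differences rest on libraries whose levels of Zfta and correlations stood near naive brain, as given above.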

How the results depend on the processing

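Of the 34 calls of members over the 5 comparisons, 25 held in every alternative that tested them. In vehicle tumor against vehicle naive brain these were 7 of 9 (not Timd4 and Cd163), for the libraries labelled MRX-2843 tumor 8 of 10 against vehicle tumor (not Mfge8 and Cd163) and 3 of 6 against MRX-2843 naive brain (Adgrb1, Elmo1 and Dock1), for MRX-2843 in naive brain 0 of 2, and for the interaction 7 of 7. Without the 2 libraries labelled MRX-2843 tumor, 9 members were still called in vehicle tumor against vehicle naive brain, beside 14683 of 23643 tested genes. Leaving out 1 library gave 7 to 9, 9 to 10, 4 to 7, 0 to 3 and 7 to 8 called members in that order of comparisons. These ranges stand without the share over all genes and show only how far the members' calls held. For MRX-2843 in naive brain, 1 member was called with only the groups compared, beside 5795 of 21711 tested genes. Without both vehicle tumor libraries 1 was called, beside 5639 of 22769. Direction reversed for 4 values, none of them called: Cd163 against MRX-2843 naive brain without MRX-2843 tumor replicate 1 (-0.071; -0.071 to 0.38 leaving out 1 library), Adgrb1 in naive brain without MRX-2843 naive brain replicate 2 (0.014; -0.12 to 0.014), and in the interaction Mfge8 with library totals (-0.020) and Msr1 without MRX-2843 naive brain replicate 1 (3.52; -2.73 to 3.52). The cause was not tested. Cd163 in vehicle tumor also lost its call with DESeq2 (adjusted p = 0.056), without a filter (0.062) and with the replicate block (0.059). Msr1 in naive brain had an adjusted p of 0.003 to 0.048 under 7 settings that left out no library or group, Mfge8 in the interaction 0.027 to 0.048 under 4, and Cd36 against MRX-2843 naive brain 0.034 to 0.047 under 4. There, Msr1 was called without a filter (0.035), and without both vehicle tumor libraries Timd4 (0.063) and Mrc1 (0.07) were not. Dock1 in naive brain lost its call with DESeq2 (0.054), with only the groups compared (0.098) and without both vehicle tumor libraries (0.079). Timd4 and Msr1 were not tested for the libraries labelled MRX-2843 tumor against MRX-2843 naive brain with only those groups. The replicate block gave 8, 10, 7, 2 and 7 called members, beside 14120, 14226, 5759, 5067 and 12113 of 24356 tested genes. Replicate differences of 2 groups correlated at -0.09 to 0.07 over 12636 genes, so no pairing by replicate number was seen. If the libraries of a group are technical duplicates, these correlations cannot show whether groups share animals. Outside vehicle tumor, Timd4 rested on 0 to 36 and Msr1 on 0 to 26 counts a library, and this depth limits what their comparisons among those groups can show.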

Other observations

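Chil3, a chitinase-like protein of alternatively activated myeloid cells and of the marker list for monocytes, went against most markers of that list. In the libraries labelled MRX-2843 tumor against vehicle tumor, 6 of the 8 markers were called lower, beside 29.8% of all tested genes. Arg1 had the same direction as Chil3, at 0.590 against 0.293 CPM, and was not called. Chil3 was singled out after its values were seen. It was at 8.90 and 6.31 CPM in the libraries labelled MRX-2843 tumor, and at 0.158 and 0.0447 CPM in vehicle naive brain, 0.0694 and 0.579 CPM in vehicle tumor, and 0.164 and 0.169 CPM in MRX-2843 naive brain. The libraries labelled MRX-2843 tumor overlapped no other group. Their log2 fold change was 5.50 ± 0.76 against MRX-2843 naive brain (adjusted p = 8.4e-05) and 4.54 ± 0.70 against vehicle tumor (4.8e-05). Pparg, a nuclear receptor that senses lipids after uptake, was low in 2 groups: it was at 1.54 ± 0.15 CPM in vehicle tumor and 0.933 ± 0.07 CPM in MRX-2843 naive brain, and at 5.33 ± 0.29 CPM in vehicle naive brain and 4.51 ± 0.75 CPM in the libraries labelled MRX-2843 tumor. In naive brain its log2 fold change with MRX-2843 was -2.51 ± 0.31 (adjusted p = 3.1e-05).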
